A study of Mus musculus with 4 samples.

Results

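The genes described here are 33 mouse genes of protein folding and quality control in the endoplasmic reticulum (ER) and of the unfolded protein response (UPR). They were taken by symbol from a list chosen with earlier results of these data known. Each matched 1 identifier among the 47069 genes of the files. The list holds 3 genes of stress sensing (2 sensors and a transcription factor), 12 chaperones and their cofactors, 5 disulphide isomerases, 8 genes of ER-associated degradation and 5 genes of translocation and vesicle coats. A mean of at least 1 FPKM (fragments per kilobase of transcript, scaled to library size) over the libraries was reached by 32 members and by 12256 genes in all. The member below that level was Derl3, a derlin gene, with 4 counts under the knockdown-labelled virus and 1 count under the control virus in OGD, and 5 counts under the knockdown-labelled virus and 16 counts under the control virus in normal culture.

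HT22, a line of immortalised neuronal cells from mouse hippocampus, was the source of the RNA (strain given as C57BL/6), and each of the 4 groups held 1 library. Before culture all cells were infected 2 h after seeding, either with an adenovirus labelled as lowering the long noncoding RNA AK046375 or with a control adenovirus. Oxygen-glucose deprivation (OGD) meant 6 h in glucose-free medium with nitrogen in place of oxygen, and normal culture was its counterpart. The groups were therefore labelled knockdown in OGD, control virus in OGD, labelled knockdown in normal culture and control virus in normal culture. Overexpression and a lentivirus are named instead in the title and design text of the series. AK046375 itself was not analysed here, so which way it was changed was not checked. Groups of 1 library give no replicate spread, so the differences below carry no test between conditions. In bulk RNA, fewer cells of a kind and less RNA per cell cannot be told apart.

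Proteins that enter the ER through the Sec61 channel fold there with the help of the chaperone BiP, encoded by Hspa5, of lectin chaperones that bind their sugars, and of isomerases that form disulphide bonds. Unfolded chains draw BiP away from membrane sensors. The sensor encoded by Ern1 then splices the mRNA of the transcription factor Xbp1, and the sensor Atf6 is cut to release a transcription factor, and both act on genes for chaperones and for the removal of misfolded chains. Low glucose is a classic trigger of this response, through poor glycosylation of new proteins. Splicing of Xbp1 and cleavage of Atf6 cannot be read from gene-level values.

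Library totals lay between 23327743 and 27539845 expected counts. The count-weighted mean transcript length was 2153 nt under the knockdown-labelled virus and 1815 nt under the control virus in OGD, and 1545 nt under the knockdown-labelled virus and 1835 nt under the control virus in normal culture. Of 10 neuronal marker genes 3 reached 1 FPKM in a library and 4, Rbfox3, Snap25, Nefl and Nefm, were listed at 0 in all libraries. Summed over the 10 neuronal markers, levels were 9.43 FPKM under the knockdown-labelled virus and 7.79 FPKM under the control virus in OGD, against 39.3 FPKM under the knockdown-labelled virus and 43.0 FPKM under the control virus in normal culture. Tubb3 made up most of these sums. Map2 was higher in OGD under the knockdown-labelled virus, at 1.29 FPKM against 0.25 FPKM, and lower under the control virus. Of the progenitor markers 3 of 4 reached 1 FPKM (Nes, Pax6 and Vim), as did 4 of 5 fibroblast markers, led by Col1a1. Vim, a progenitor marker here, was at 4087 FPKM under the knockdown-labelled virus and 4665 FPKM under the control virus in OGD. In normal culture Vim was at 871 FPKM under the knockdown-labelled virus and 2470.1 FPKM under the control virus. Under the control virus Nes and Pax6 went the other way, at 39.2 and 6.61 FPKM in OGD against 46.8 and 11.9 FPKM. Under the knockdown-labelled virus both were higher in OGD, at 44.25 and 11.5 FPKM against 22.3 and 6.87 FPKM. Fibroblast markers summed to 361 FPKM under the knockdown-labelled virus and 254 FPKM under the control virus in OGD, and to 494 FPKM under the knockdown-labelled virus and 421 FPKM under the control virus in normal culture. Col1a1 made up most of these sums. Col1a2 and Dcn were instead higher in OGD under both viruses, and Pdgfra was so under the knockdown-labelled virus only. Microglial, oligodendrocyte and endothelial markers, 5, 5 and 4 genes, all stayed under 1 FPKM, and of 6 astrocyte markers only Slc1a3 reached it. The part of cell identity in the differences below was not tested.

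The promoters of several members carry the DNA element that ATF6 and XBP1 act on, and its letters are shown here because those factors are the effectors of the response. RefSeq promoter windows of GRCm38.p6, from 250 bases before to 50 bases after the start site, were given for 27 members. They were searched on both strands for the ER stress element (ERSE: CCAAT and CCACG, separated by 9 bases of any kind), for ERSE-II (ATTGG, 1 base of any kind, CCACG) and for TGACGTGG. ERSE was found in 9 of 27 members (33.3%), against 37 of 27025 genes with a window (0.137%). ERSE-II was found in 2 of 27 members (7.41%) and in 12 of all genes (0.0444%), and TGACGTGG in 1 of 27 members (3.70%) and 193 of all genes (0.714%). In the wider list of ER genes described further on, 1 of 74 genes with a window held ERSE (1.35%), 0 held ERSE-II and 6 held TGACGTGG (8.11%). The totals over all genes include the members. Members were listed as genes of ER folding and of this response, so their shares are a description and not a test of the element. A match of letters is a description of the sequence, not a bound site. The members with no window were Atf6, Hyou1, Hspa13, Manf, Derl1 and Sec61a1.

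The ERSE matches, written 5′ to 3′ in the orientation of the motif with its fixed letters in capitals, were these. Hsp90b1 held 2 of them, on opposite strands.
Hspa5, chr2:34772025-34772043: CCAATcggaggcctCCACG
Calr, chr8:84847075-84847093: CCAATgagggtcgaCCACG
Derl3, chr10:75893242-75893260: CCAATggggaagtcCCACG
Hsp90b1, chr10:86705638-86705656: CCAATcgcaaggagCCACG
Hsp90b1, chr10:86705533-86705551: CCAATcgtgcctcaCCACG
Canx, chr11:50325800-50325818: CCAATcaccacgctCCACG
Pdia6, chr12:17266491-17266509: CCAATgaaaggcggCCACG
Dnajc3, chr14:118937827-118937845: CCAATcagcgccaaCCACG
Creld2, chr15:88819520-88819538: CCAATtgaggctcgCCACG
Syvn1, chr19:6046532-6046550: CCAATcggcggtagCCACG

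The ERSE-II matches, in the same notation, lay in the genes for a degradation scaffold and for a BiP cofactor, in Dnajb11 7 to 17 bases past the start site.
Herpud1, chr8:94386377-94386387: ATTGGgCCACG
Dnajb11, chr16:22857852-22857862: ATTGGcCCACG

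The 250 bases before the start site follow for 4 members whose levels are described in detail below, in the direction of the gene, with the matches in capitals. Hspa5 and Hsp90b1 hold ERSE, Herpud1 holds ERSE-II and Sec24d holds TGACGTGG.
Hspa5, chr2:34771840-34772089, plus strand: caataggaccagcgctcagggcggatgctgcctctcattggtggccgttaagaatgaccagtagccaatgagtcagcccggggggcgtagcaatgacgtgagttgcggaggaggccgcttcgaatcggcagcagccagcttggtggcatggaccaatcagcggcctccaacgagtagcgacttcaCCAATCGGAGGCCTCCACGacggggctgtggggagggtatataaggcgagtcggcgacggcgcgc
Hsp90b1, chr10:86705445-86705694, minus strand: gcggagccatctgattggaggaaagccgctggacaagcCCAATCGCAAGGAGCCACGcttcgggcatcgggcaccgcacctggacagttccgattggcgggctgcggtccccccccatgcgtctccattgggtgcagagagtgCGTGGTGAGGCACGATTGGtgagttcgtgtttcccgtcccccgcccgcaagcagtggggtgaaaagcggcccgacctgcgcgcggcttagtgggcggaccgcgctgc
Herpud1, chr8:94386179-94386428, plus strand: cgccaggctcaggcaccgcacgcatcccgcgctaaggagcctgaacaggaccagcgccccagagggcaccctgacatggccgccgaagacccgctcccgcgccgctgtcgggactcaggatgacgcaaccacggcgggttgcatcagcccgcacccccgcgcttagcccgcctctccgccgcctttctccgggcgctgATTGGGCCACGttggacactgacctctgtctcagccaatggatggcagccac
Sec24d, chr3:123267246-123267495, plus strand: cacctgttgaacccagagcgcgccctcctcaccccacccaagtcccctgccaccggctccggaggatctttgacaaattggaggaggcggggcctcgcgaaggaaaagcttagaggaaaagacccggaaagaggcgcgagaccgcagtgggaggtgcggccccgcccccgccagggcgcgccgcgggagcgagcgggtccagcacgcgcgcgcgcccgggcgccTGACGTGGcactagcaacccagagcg

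Together the 33 genes took 1.15% of expected counts under the knockdown-labelled virus and 0.822% under the control virus in OGD. In normal culture they took 0.511% under the knockdown-labelled virus and 0.752% under the control virus. The shares of the OGD libraries were thus both above those of the normal libraries, with the extremes held by the knockdown-labelled virus. Under the control virus chaperones and degradation genes took larger shares in OGD, but sensing genes, isomerases and translocation and coat genes took smaller ones. As a share of summed FPKM the 33 genes were nearly level under that virus, at 0.541% in OGD and 0.531% in normal culture. Chaperones made up most of the spread, with 0.647% of counts under the knockdown-labelled virus in OGD, 0.419% under the control virus in OGD, 0.211% under the knockdown-labelled virus in normal culture and 0.319% under the control virus in normal culture. Translocation and coat genes differed in direction among themselves, and their sum was dominated by the small channel subunits Sec61b and Sec61g. In summed FPKM they came to 1079 FPKM under the knockdown-labelled virus and 1303 FPKM under the control virus in OGD, against 2270.5 FPKM under the knockdown-labelled virus and 1352 FPKM under the control virus in normal culture.

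**Figure D1:**
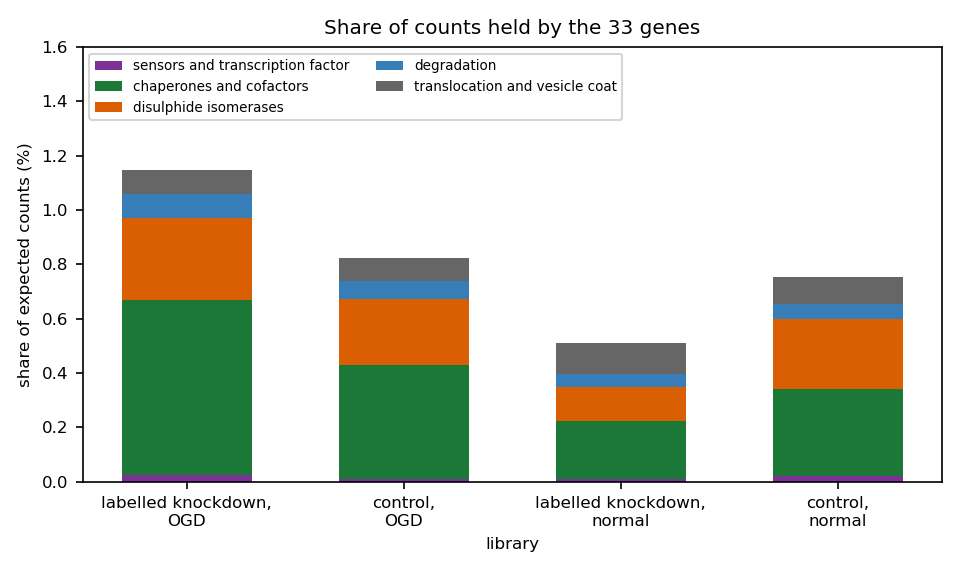
Share of expected counts (%) held by the 33 genes in each library, stacked by role. The bar of the knockdown-labelled virus in OGD is the tallest at 1.15% and that of the same virus in normal culture the lowest at 0.511%, with 0.822% in the control OGD library and 0.752% in the control normal library.

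The sensors were low and the transcription factor was moderate in level. Atf6 was at 7.54 FPKM under the knockdown-labelled virus and 3.52 FPKM under the control virus in OGD, and at 1.67 FPKM under the knockdown-labelled virus and 5.67 FPKM under the control virus in normal culture. Ern1 was at 27.4 FPKM under the knockdown-labelled virus and 9.73 FPKM under the control virus in OGD and at 3.68 FPKM under the knockdown-labelled virus and 9.19 FPKM under the control virus in normal culture. For both sensors the labelled-knockdown libraries held the highest and the lowest level. Xbp1 was at 42.2 FPKM under the knockdown-labelled virus and 21.5 FPKM under the control virus in OGD, and higher in normal culture, at 53.2 FPKM under the knockdown-labelled virus and 91.0 FPKM under the control virus.

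Among the chaperones, Calr, encoding the soluble lectin chaperone calreticulin, was the most abundant member in 3 of the 4 libraries, at 1947 FPKM under the knockdown-labelled virus and 1597 FPKM under the control virus in OGD, and at 717 FPKM under the knockdown-labelled virus and 1137 FPKM under the control virus in normal culture. Hspa5 was at 1331 FPKM under the knockdown-labelled virus and 401 FPKM under the control virus in OGD, and at 173 FPKM under the knockdown-labelled virus and 447 FPKM under the control virus in normal culture. It ranked 114 among all genes under the knockdown-labelled virus in OGD and 1073 under that virus in normal culture, while its levels in the control libraries were close to each other. The ER member of the HSP90 family, Hsp90b1, was at 333 FPKM under the knockdown-labelled virus and 140.2 FPKM under the control virus in OGD, and at 84.7 FPKM under the knockdown-labelled virus and 114 FPKM under the control virus in normal culture. Canx, the membrane-bound lectin chaperone calnexin, was at 175 FPKM under the knockdown-labelled virus and 69.5 FPKM under the control virus in OGD and at 25.2 FPKM under the knockdown-labelled virus and 50.0 FPKM under the control virus in normal culture.

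The cofactors of BiP differed among themselves. Dnajb9, a J-domain protein that directs BiP to its substrates, was at 17.4 FPKM under the knockdown-labelled virus and 5.72 FPKM under the control virus in OGD, and at 2.14 FPKM under the knockdown-labelled virus and 2.19 FPKM under the control virus in normal culture. Dnajb11, another J-domain cofactor, was at 118 FPKM under the knockdown-labelled virus and 129 FPKM under the control virus in OGD and at 68.5 FPKM under the knockdown-labelled virus and 53.1 FPKM under the control virus in normal culture, so both OGD libraries lay above both normal ones. Sdf2l1, whose protein binds that cofactor, was the reverse, at 26.8 FPKM under the knockdown-labelled virus and 25.4 FPKM under the control virus in OGD, against 81.6 FPKM under the knockdown-labelled virus and 64.7 FPKM under the control virus in normal culture. Hspa13, a microsomal HSP70-like protein gene, was low, at 8.80 FPKM under the knockdown-labelled virus and 1.45 FPKM under the control virus in OGD and 0.94 FPKM under the knockdown-labelled virus and 2.64 FPKM under the control virus in normal culture, on 68 to 625 counts. Among the remaining chaperone genes, Manf, which encodes a secreted ER stress protein with neurotrophic action, lay within 279.6 to 359 FPKM, and Creld2, for another secreted ER stress protein, within 66.0 to 126 FPKM. Hyou1, which encodes a nucleotide exchange factor of BiP, lay within 27.8 to 55.6 FPKM, and Dnajc3, a J-domain cofactor that also restrains the kinase PERK, within 3.03 to 16.2 FPKM.

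Of the disulphide isomerases, P4hb, the founding protein disulphide isomerase, was at 1025 FPKM under the knockdown-labelled virus and 1042 FPKM under the control virus in OGD, and at 454 FPKM under the knockdown-labelled virus and 916 FPKM under the control virus in normal culture. Pdia3, the isomerase that works with the lectin chaperones, was at 359 FPKM under the knockdown-labelled virus and 134 FPKM under the control virus in OGD and at 63.6 FPKM under the knockdown-labelled virus and 137 FPKM under the control virus in normal culture. Pdia4 was at 96.0 FPKM under the knockdown-labelled virus and 55.2 FPKM under the control virus in OGD and 42.4 FPKM under the knockdown-labelled virus and 100.5 FPKM under the control virus in normal culture. For all of these isomerases the labelled-knockdown normal library held the lowest level. It was also the lowest for Pdia6, at 216 FPKM under either virus in OGD and 168 FPKM under the knockdown-labelled virus and 329 FPKM under the control virus in normal culture, and for Dnajc10, an ER reductase that acts in degradation, within 6.73 to 24.4 FPKM.

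Degradation genes were mixed. Herpud1, which encodes a scaffold of the degradation complex, was at 316 FPKM under the knockdown-labelled virus and 238 FPKM under the control virus in OGD, against 41.9 FPKM under the knockdown-labelled virus and 87.9 FPKM under the control virus in normal culture. Sel1l, the adaptor of the ubiquitin ligase encoded by Syvn1, was at 20.1 FPKM under the knockdown-labelled virus and 6.13 FPKM under the control virus in OGD and at 4.51 FPKM under the knockdown-labelled virus and 12.3 FPKM under the control virus in normal culture. The ligase gene Syvn1 itself moved within a narrow range, from 15.8 to 29.6 FPKM. Edem2, a mannosidase-like protein that marks glycoproteins for removal, was at 12.1 FPKM under the knockdown-labelled virus and 12.8 FPKM under the control virus in OGD, against 32.0 FPKM under the knockdown-labelled virus and 49.0 FPKM under the control virus in normal culture. Its relative Edem1 lay within 6.60 to 15.1 FPKM, and the derlin genes Derl1 and Derl2, for membrane proteins of the export of misfolded chains, within 61.1 to 86.2 and 24.4 to 49.2 FPKM.

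The translocation genes split by subunit. Sec61b, a small subunit of the channel, was at 484 FPKM under the knockdown-labelled virus and 772 FPKM under the control virus in OGD, and at 1429.7 FPKM under the knockdown-labelled virus and 648 FPKM under the control virus in normal culture, where it was the most abundant member under the knockdown-labelled virus. The other small subunit, Sec61g, was at 228 FPKM under the knockdown-labelled virus and 365 FPKM under the control virus in OGD and 670.3 FPKM under the knockdown-labelled virus and 353 FPKM under the control virus in normal culture. The pore subunit Sec61a1 had the opposite order of libraries, at 233 FPKM under the knockdown-labelled virus and 128 FPKM under the control virus in OGD and at 127 FPKM under the knockdown-labelled virus and 216 FPKM under the control virus in normal culture. Sec24d, a cargo-binding subunit of the COPII coat of vesicles leaving the ER, was at 104 FPKM under the knockdown-labelled virus and 28.7 FPKM under the control virus in OGD, and at 23.2 FPKM under the knockdown-labelled virus and 92.5 FPKM under the control virus in normal culture. Its coat partner Sec23b was at 30.3 FPKM under the knockdown-labelled virus and 10.5 FPKM under the control virus in OGD and at 20.5 FPKM under the knockdown-labelled virus and 41.7 FPKM under the control virus in normal culture.

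**Figure D2:**
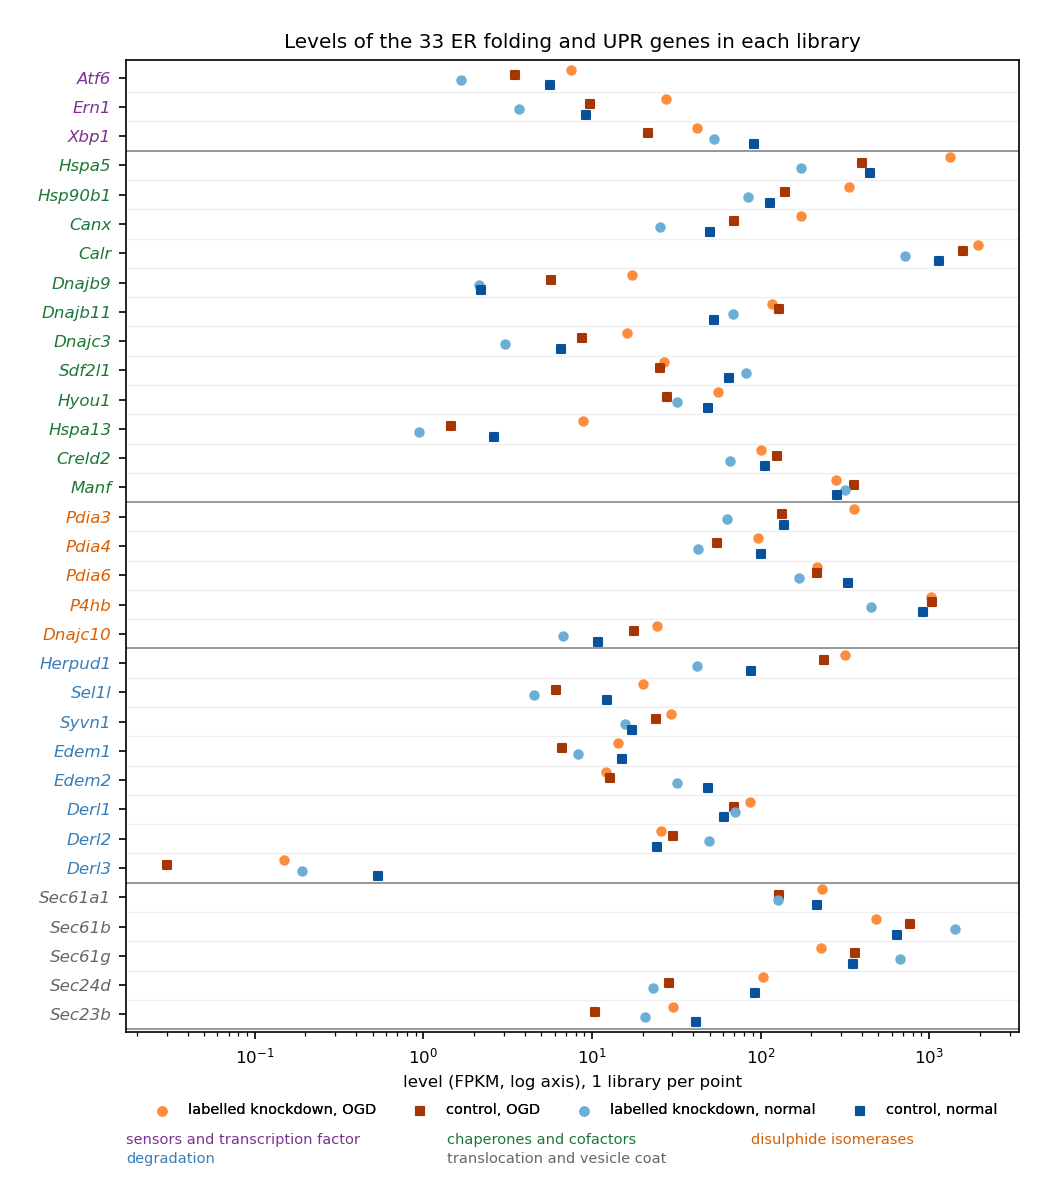
Level of each of the 33 genes (FPKM, log axis) in the 4 libraries, 1 point per library, with points coloured by library and gene names by role. For Hspa5, Ern1, Sel1l and Sec24d the labelled-knockdown libraries sit at the outer ends, above the controls in OGD and below them in normal culture, whereas Sec61b and Sec61g show the reverse.

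OGD was set against normal culture under the control virus to see how the pathway differed with deprivation in cells that carried the control virus. The chaperone cofactor genes Dnajb9 and Dnajb11 and the degradation gene Herpud1 were higher in OGD, and Xbp1, Sdf2l1, Edem1, Edem2, Sec24d and Sec23b were lower, while the log2 ratios of the major chaperones Hspa5, Hsp90b1, Canx and Calr lay within -0.16 to 0.49. Log2 ratios are of FPKM + 1, and genes at or beyond 2-fold on this scale were called higher or lower. By this measure 3 of 32 members were higher, against 11.6% of all genes, and 6 of 32 were lower, against 24.3% of all genes. Folds of single genes are given without the added 1 FPKM, and by fold alone Sel1l was also past 2-fold, 2.01-fold lower. The split of called members was 4 higher and 4 lower with upper-quartile scaling, beside 18.6% and 16.1% of all genes. With equal FPKM sums it was 2 and 6, beside 10.1% and 27.0%. The median log2 ratio was 0.06 for the members and -0.25 for all genes. With equal FPKM sums these medians were -0.05 and -0.34, with upper-quartile scaling 0.43 and 0.07, and with median-of-ratios scaling 0.35 and 0.00.

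Under the control virus Herpud1 was 2.71-fold higher in OGD (95% counting interval 2.59 to 2.84), at 238 FPKM in OGD and 87.9 FPKM in normal culture. Dnajb9 was 2.61-fold higher (2.06 to 3.33) and Dnajb11 2.43-fold higher (2.29 to 2.57). Xbp1 was 4.23-fold lower (3.94 to 4.55), Sec23b 3.98-fold lower (3.63 to 4.36) and Edem2 3.83-fold lower (3.50 to 4.20). The coat gene Sec24d was 3.23-fold lower (3.05 to 3.42), Sdf2l1 2.55-fold lower (2.32 to 2.80) and Edem1 2.29-fold lower (2.09 to 2.50). These intervals are exact binomial ones on the counts of a pair of libraries, cover counting error only and compare the libraries, not the conditions. Of these 9 genes, 6 stayed past 2-fold in the same direction under every one of the 10 alternatives tried, and the exceptions were Dnajb9 (0.99 at its lowest on the log2 scale), Sdf2l1 (-0.93) and Edem1 (-0.67). BiP itself stood at 401 FPKM in OGD and 447 FPKM in normal culture, a log2 ratio of -0.16 whose sign turned under 6 alternatives. Transcript length had a Spearman correlation of -0.03 with the log2 ratio over all genes and -0.19 over the 32 members.

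Under the knockdown-labelled virus OGD was set against normal culture in the same way, with the library pair independent of the one above. Most sensors, chaperones and isomerases were higher in OGD there. The 16 genes higher were Atf6, Ern1, Hspa5, Hsp90b1, Canx, Calr, Dnajb9, Dnajc3, Hspa13, Pdia3, Pdia4, P4hb, Dnajc10, Herpud1, Sel1l and Sec24d, and the 4 genes lower were Sdf2l1, Edem2, Sec61b and Sec61g. That is 16 of 32 members higher, beside 33.4% of all genes, and 4 of 32 lower, beside 20.9% of all genes. The member median was 1.02 and that of all genes 0.32 on the log2 scale. By role, 7 of 12 chaperones, 4 of 5 isomerases, 2 of 3 sensing genes, 2 of 7 measured degradation genes and 1 of 5 translocation and coat genes were higher.

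Hspa5 was 7.68-fold higher in OGD under this virus (7.50 to 7.88), at 1331 FPKM in OGD and 173 FPKM in normal culture, and Herpud1 was 7.53-fold higher (7.07 to 8.03). Ern1 was 7.44-fold higher (6.70 to 8.28) and Canx 6.93-fold higher (6.56 to 7.33). On few counts, Hspa13 was 9.36-fold higher (7.28 to 12.2) and Dnajb9 8.12-fold higher (6.46 to 10.3). Sdf2l1 was 3.05-fold lower (2.77 to 3.36), Sec61b 2.96-fold lower (2.85 to 3.07), Sec61g 2.94-fold lower (2.82 to 3.06) and Edem2 2.64-fold lower (2.37 to 2.95). Herpud1 and Dnajb9 were thus higher, and Sdf2l1 and Edem2 lower, by 2-fold or more in both OGD comparisons. In contrast, Sec24d was 4.47-fold higher in OGD under the knockdown-labelled virus (4.18 to 4.78) and lower under the control virus. Of the 20 genes past 2-fold, 12 stayed so under every alternative, Hspa5, Herpud1, Canx, Ern1 and Pdia3 among them. Length moved with this comparison: its Spearman correlation with the log2 ratio was 0.47 over all genes and 0.43 over the 32 members, and with the length trend removed 11 members were higher and 3 lower, beside 21.5% and 21.4% of all genes. The sensor Atf6, with a transcript of 7246 nt, then stood at 0.25 on the log2 scale.

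**Figure D3:**
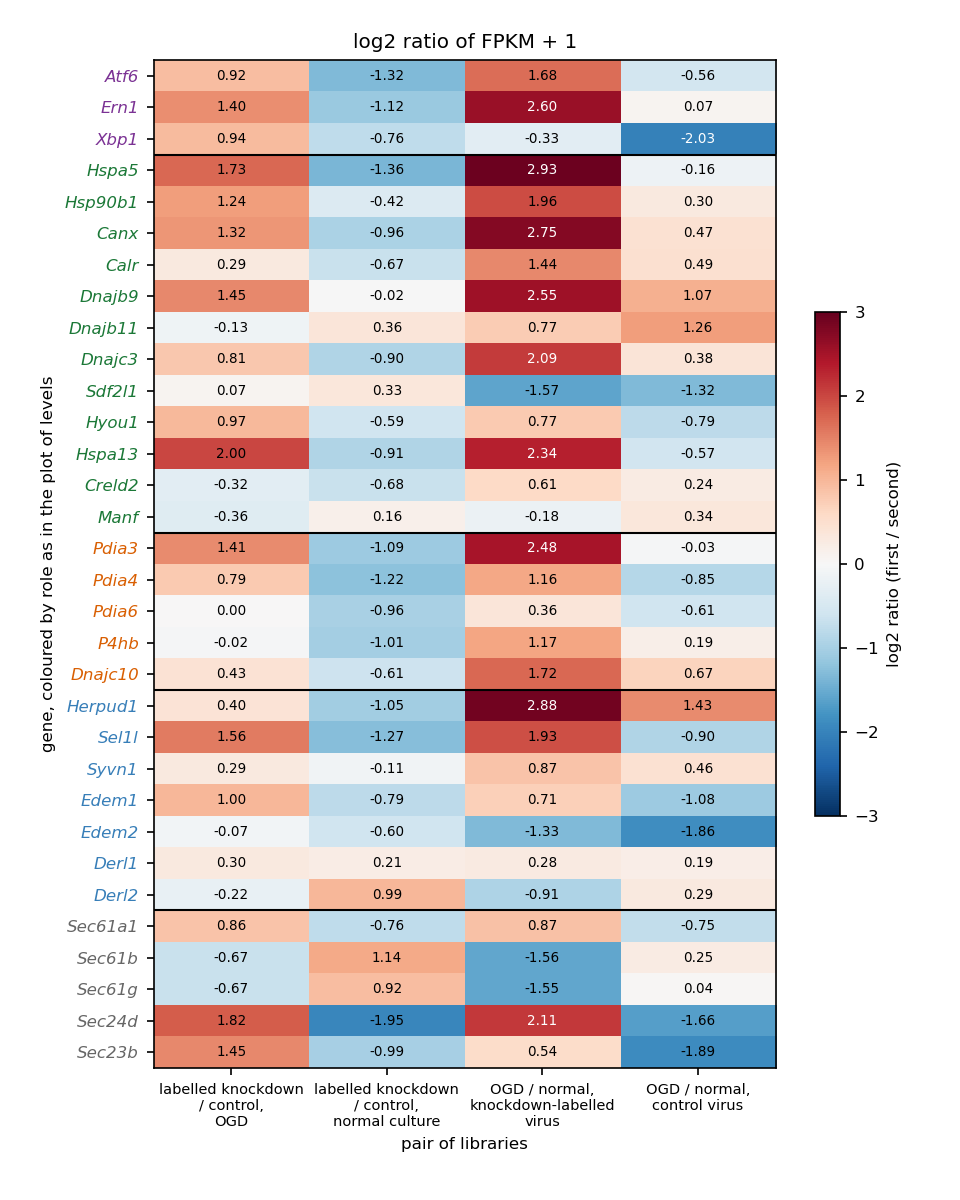
Log2 ratios of FPKM + 1 for the 32 measured members in the 4 pairs of libraries, red for higher and blue for lower in the first-named library, with lines between the roles. The column for OGD under the knockdown-labelled virus holds 16 values at or above 1, among them 2.93 for Hspa5, and the column for OGD under the control virus holds 3.

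The knockdown-labelled virus was set against the control virus within OGD to see whether the pathway differed between deprived cells. Under the knockdown-labelled virus 5 of 12 chaperones, the sensor gene Ern1 and both coat genes were higher, and no member was lower by 2-fold. The 11 genes higher were Ern1, Hspa5, Hsp90b1, Canx, Dnajb9, Hspa13, Pdia3, Sel1l, Edem1, Sec24d and Sec23b. They make 11 of 32 members, beside 16.2% of all genes, and 0 of 32 were lower, beside 2.28% of all genes. The median was 0.80 for the members and 0.26 for all genes, and the number higher was 6 with TMM scaling and with the length trend removed and 17 with equal FPKM sums, beside 9.66%, 7.13% and 25.8% of all genes.

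Hspa13 was 6.07-fold higher under the knockdown-labelled virus in OGD (5.02 to 7.39), on 625 counts against 130 counts under the control virus. Sec24d was 3.62-fold higher (3.41 to 3.83), at 104 FPKM against 28.7 FPKM under the control virus, and Hspa5 was 3.32-fold higher (3.27 to 3.38). Sel1l was 3.27-fold higher (3.01 to 3.55), Dnajb9 3.04-fold higher (2.63 to 3.52), Sec23b 2.89-fold higher (2.62 to 3.19) and Ern1 2.82-fold higher (2.63 to 3.01). Pdia3 was 2.68-fold higher (2.60 to 2.76), Canx 2.52-fold higher (2.43 to 2.60), Hsp90b1 2.38-fold higher (2.31 to 2.45) and Edem1 2.16-fold higher (1.97 to 2.37). Hspa5, Hspa13, Sec24d and Dnajb9 stayed past 2-fold under every alternative that gave them a value, whereas Edem1 lay within 2-fold in 6 of 10. Atf6, not called on the scale of FPKM + 1, was 2.14-fold higher (1.95 to 2.35). P4hb, at 0.984-fold (0.971 to 0.997), and Pdia6, at 1.00-fold (0.974 to 1.03), were nearly level. The authors' deposited table for this pair lists 219 genes with an unadjusted p of up to 0.05 by their own method, 1 of them with an adjusted p under 0.05. That table includes Sec24d, at a log2 fold change of 1.47 with an adjusted p of 0.611, and Hspa5, at 1.34 with an adjusted p of 0.685.

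In normal culture the same comparison of viruses gave the opposite picture. Both sensors, 3 of 5 isomerases, Hspa5 and the coat gene Sec24d were lower and the small channel subunit Sec61b was higher. The 9 genes called lower on the scale of FPKM + 1 were Atf6, Ern1, Hspa5, Pdia3, Pdia4, P4hb, Herpud1, Sel1l and Sec24d. They make 9 of 32 members, beside 13.9% of all genes, and Sec61b made 1 of 32 higher, beside 4.67% of all genes. The median was -0.76 for the members and -0.27 for all genes. This split depended on scaling, with 3 higher and 3 lower under both median-of-ratios and TMM scaling, 3 and 4 under upper-quartile scaling, and 0 and 17 with equal FPKM sums. The shares of all genes moved with it, to 10.5% higher and 6.53% lower under median-of-ratios scaling and 1.53% and 24.7% with equal FPKM sums.

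Sec24d was 3.99-fold lower under the knockdown-labelled virus in normal culture (3.73 to 4.27), at 23.2 FPKM against 92.5 FPKM under the control virus, and it was the one gene past 2-fold here under every alternative. Atf6 was 3.40-fold lower (2.97 to 3.90), Sel1l 2.73-fold lower (2.45 to 3.05), Hspa5 2.58-fold lower (2.51 to 2.65) and Ern1 2.50-fold lower (2.22 to 2.81). With the length trend removed, Hspa5 stood at -1.04, Atf6 at -0.85, Sel1l at -0.72 and Ern1 at -0.57 on the log2 scale. Ern1 stayed past 2-fold in 4 of 10 alternatives, Sel1l in 6 of 10, Atf6 in 8 of 9 and Hspa5 in 9 of 10. Pdia4 was 2.37-fold lower (2.25 to 2.49), Pdia3 2.15-fold lower (2.06 to 2.25), Herpud1 2.10-fold lower (1.95 to 2.25) and P4hb 2.02-fold lower (1.98 to 2.05), and each of these lay within 2-fold in at least 5 alternatives. Sec61b was 2.21-fold higher (2.13 to 2.28), with log2 ratios of 0.73 to 1.48 over the alternatives. Not called on the scale of FPKM + 1, Hspa13 was 2.80-fold lower (2.12 to 3.74), Dnajc3 2.15-fold lower, Sec23b 2.03-fold lower and Derl2 2.02-fold higher. The authors' deposited table for this pair lists 1342 genes with an unadjusted p of up to 0.05 by their own method. Of these 1342 genes, 4 have an adjusted p under 0.05, and 3 are members. The log2 fold changes of the members there are -1.60 for Sec24d and -1.50 for Atf6, both with an adjusted p of 0.714. For Sec61b the authors' deposited table gives 1.38 with an adjusted p of 0.737.

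The comparisons of viruses in OGD and in normal culture share no library, and their directions were opposed for most members. Of 32 members, 22 (68.8%) were higher under the knockdown-labelled virus in OGD and lower in normal culture, against 51.4% of all genes, and 5 (15.6%) were the reverse, against 22.4% of all genes. Past 2-fold in both on the scale of FPKM + 1, in that order, were Ern1, Hspa5, Pdia3, Sel1l and Sec24d, 5 of 32 members, and 4.41% of all genes. The Spearman correlation of the 2 log2 ratios was -0.64 across the 32 members and -0.50 across all genes, which share the libraries and are not independent. With the length trend removed from both ratios it was -0.47 across the members and -0.32 across all genes.

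The difference of the log2 ratios, OGD minus normal culture, was at least 1 for 19 of 32 members, beside 37.4% of all genes, and at most -1 for 3 of 32, beside 12.7%. The largest were those of Sec24d at 3.77, Hspa5 at 3.09, Hspa13 at 2.91 and Sel1l at 2.83, and the lowest were those of Sec61b at -1.81, Sec61g at -1.59 and Derl2 at -1.21. All 3 sensing genes were among the 19, with Ern1 at 2.53, Atf6 at 2.24 and Xbp1 at 1.70. The member median was 1.52 and that of all genes 0.61. The split was 14 and 5 with median-of-ratios scaling, beside 21.7% and 22.8% of all genes, and 24 and 1 with equal FPKM sums, beside 53.8% and 5.40%. With the length trend removed 11 members were at 1 or more, beside 16.5% of all genes.

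**Figure D4:**
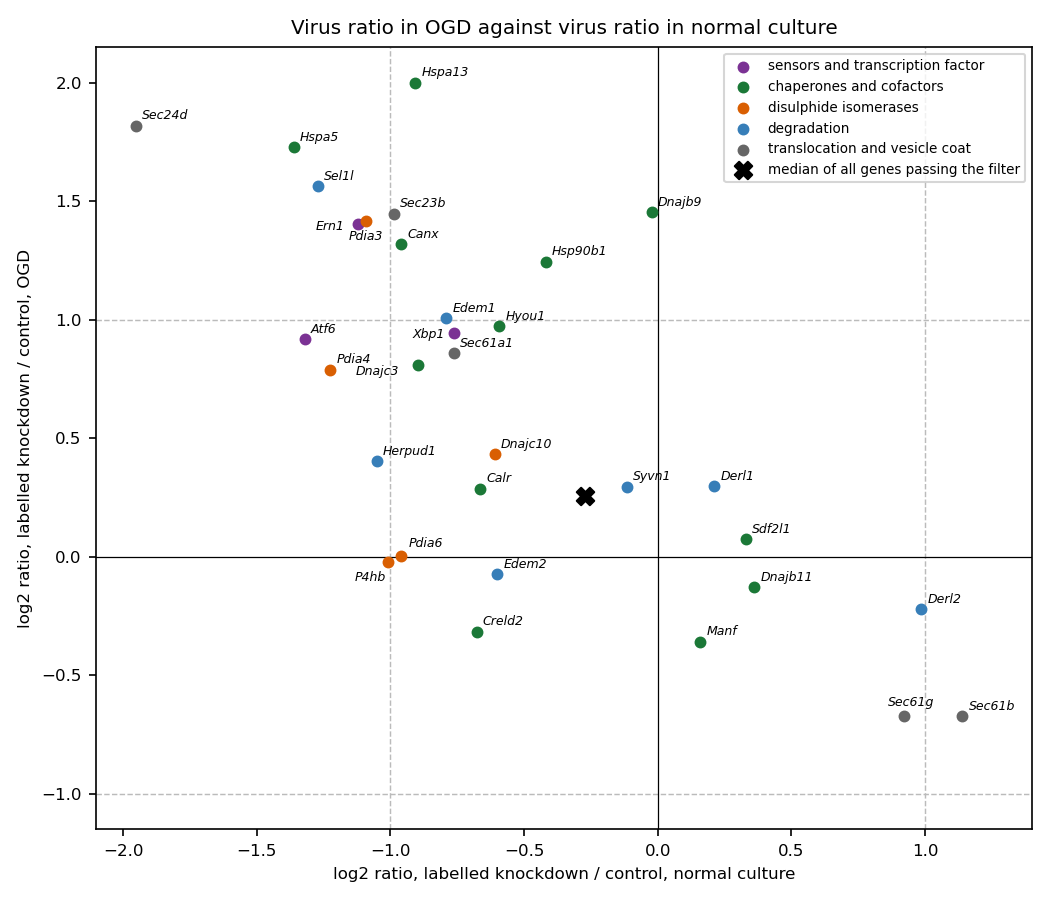
Log2 ratio of the labelled knockdown over the control virus in OGD (vertical axis) against the same ratio in normal culture (horizontal axis) for the 32 measured members, coloured by role, with dashed lines at 2-fold and a cross at the median of all genes (0.26 in OGD and -0.27 in normal culture). Sec24d, Hspa5, Sel1l, Ern1 and Pdia3 lie past 2-fold in the upper left, and Sec61b and Sec61g lie at the lower right.

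Transcript length moved with both comparisons of viruses. Over all 12256 genes its Spearman correlation with the log2 ratio was 0.57 in OGD and -0.43 in normal culture, and over the 32 members it was 0.59 and -0.46. The members lower in OGD and higher in normal culture included the small channel subunits, Sec61b at 515 nt and Sec61g at 766 nt. Genes of up to 1000 nt had medians of -0.43 in OGD and 0.40 in normal culture; for these 2 members the medians were -0.67 in OGD and 1.03 in normal culture. The 14 members of over 1000 to 2000 nt had a median of 0.04 in OGD, against 0.02 for the 3926 genes of that length, and of -0.67 in normal culture, against -0.12. The 7 members of over 2000 to 3000 nt had a median of 1.24 in OGD, against 0.43 for the 2779 genes of that length, and of -0.96 in normal culture, against -0.47. The 9 members over 3000 nt had a median of 0.97 in OGD, against 0.74 for 3168 genes, and of -0.90 in normal culture, against -0.54. With the trend removed the member median was 0.28 in OGD and -0.35 in normal culture, against -0.02 and 0.01 for all genes. In OGD 6 members were then higher and 0 lower, beside 7.13% and 1.82% of all genes, and in normal culture 1 was higher and 3 were lower, beside 4.19% and 6.12%. Hspa5 (1.50 in OGD and -1.04 in normal culture) and Sec24d (1.47 and -1.51) remained past 2-fold in both, and Sec61b (-0.22 and 0.73) in neither. The part of RNA quality or library preparation in this relation was not tested.

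**Figure D5:**
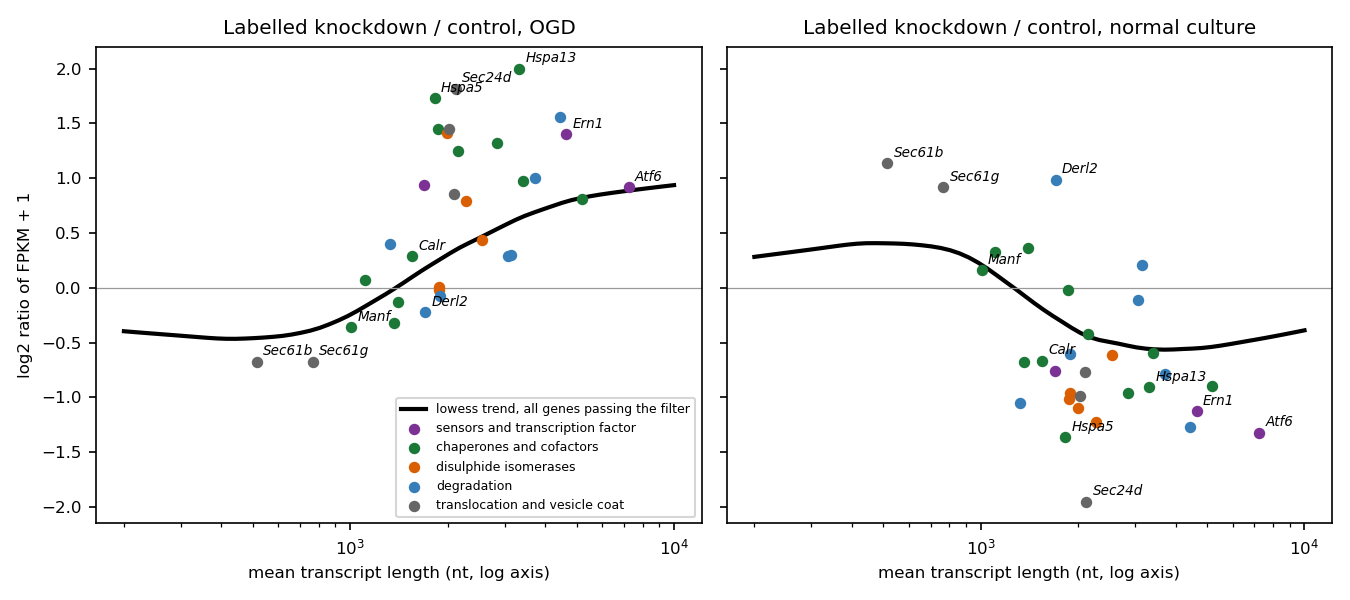
Log2 ratio of the labelled knockdown over the control virus against mean transcript length (nt, log axis) in OGD (left) and normal culture (right), with members as points coloured by role and the lowess trend of all 12256 genes as a line. The trend climbs with length on the left and falls on the right, and Hspa5 and Sec24d lie away from it on both sides.

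Members with ERSE in the promoter window gave 8 measured genes, since Derl3 was below the filter. In OGD over normal culture under the knockdown-labelled virus 5 of these 8 were higher and 0 lower, beside 33.4% and 20.9% of all genes. The median of the 8 was 1.70, with a range of 0.36 to 2.93. Among the 15 members with a window but none of the 3 motifs, 7 were higher and 4 lower, with a median of 0.71. In OGD over normal culture under the control virus 0 of 8 ERSE genes passed 2-fold in either direction, within -0.61 to 0.49, against 1 higher and 5 lower of the 15. Of all genes 11.6% were higher and 24.3% lower there. The ERSE-II genes Herpud1 and Dnajb11 were 2 of the 3 members higher in that comparison, and the remaining gene, Dnajb9, held none of the 3 motifs. In OGD over normal culture under the knockdown-labelled virus Herpud1 was at 2.88 and Dnajb11 at 0.77, not called. For the viruses in OGD they were at 0.40 and -0.13, neither of them called. Between viruses in OGD 3 of 8 ERSE genes were higher under the knockdown-labelled virus with a median of 0.55, against 6 of 15 with a median of 0.79 for members without a motif. The share of all genes higher there was 16.2%. In normal culture 1 of 8 was lower with a median of -0.79, against 5 of 15 lower and 1 higher with a median of -0.76. Of all genes 13.9% were lower and 4.67% higher. The difference between cultures was at least 1 for 4 of 8, with a median of 1.31, and for 9 of 15, with a median of 1.48. It was at least 1 for 37.4% of all genes.

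A wider list of 92 other ER genes, covering further sensors, folding and glycoprotein control, degradation, translocation and coats, gave 91 measured genes. In OGD over normal culture under the knockdown-labelled virus 34 of 91 were higher and 12 lower, beside 33.4% and 20.9% of all genes, with a median of 0.59, and the largest ratios were those of the mannosidase-like gene Edem3 at 2.72, the J-domain gene Dnajc1 at 2.49 and the glycosylation gene Stt3a at 2.40. Under the control virus 2 were higher and 15 lower, beside 11.6% and 24.3% of all genes, with a median of -0.24, led by the coat gene Sec23a at -2.59, the translocation gene Sec63 at 2.00 and the glucosidase gene Mogs at -1.93. For the knockdown-labelled over the control virus 17 were higher and 0 lower in OGD, beside 16.2% and 2.28% of all genes, with a median of 0.37, led by Edem3 at 2.58, Stt3a at 2.08 and Sec23a at 1.68. In normal culture 1 was higher and 15 were lower, beside 4.67% and 13.9% of all genes, with a median of -0.43, among them Sec23a at -2.20, the cargo receptor gene Lman1 at -1.66 and the signal recognition particle receptor gene Srpr at -1.58. Sec23a, a paralogue of Sec23b, was, like Sec24d, higher under the knockdown-labelled virus in OGD and lower in normal culture, at 12.4 FPKM under the knockdown-labelled virus and 3.19 FPKM under the control virus in OGD, and at 4.52 FPKM under the knockdown-labelled virus and 24.3 FPKM under the control virus in normal culture.

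Hspa5 lies on chromosome 2, 34771970 to 34777547, Sec24d on chromosome 3, 123267455 to 123365641, and Sec61b on chromosome 4, 47474658 to 47483242, and all are protein-coding genes in GRCm38. Some members share genomic positions with another annotated gene, and the sources used here do not say whether counting used the strand. Derl2 overlaps Mis12 on the opposite strand, which was at 38.0 FPKM under the knockdown-labelled virus and 10.8 FPKM under the control virus in OGD, and at 4.74 FPKM under the knockdown-labelled virus and 8.16 FPKM under the control virus in normal culture. Sec61a1 overlaps an antisense gene at 51.3 to 97.2 FPKM, Syvn1 overlaps Mrpl49 and Manf overlaps Rbm15b. Hsp90b1 overlaps Gm25745, annotated as a microRNA gene on the same strand, which was listed at 0 in both labelled-knockdown libraries and at 132.9 FPKM in OGD and 107.5 FPKM in normal culture under the control virus. The counts and effective length of Gm25745 were not examined, so the number of reads behind these values is not known here. For these members the reads of both genes may not have been told apart.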

How the data were processed

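Total RNA of 4 libraries was fragmented to about 200 bp and amplified by 12 PCR cycles with dUTP marking of a cDNA strand, per the labels' protocols. TopHat2 and mm10 are named in the submitters' processing notes; the sources used here do not name the counting tool, annotation or strand setting. The authors deposited per gene, per the file headers, lengths, expected counts, TPM and FPKM. Every expected count the authors deposited was a whole number, and 99.98% of FPKM values of tested genes were recomputed from them within 1% plus 0.01 FPKM. TPM values deposited by the authors, which are FPKM rescaled to equal sums, were not used directly. Each of 2 tables deposited by the authors gives per gene a log2 fold change with raw and adjusted p-values, by a tool the sources used here do not name. Both tables together also hold 4 columns of library values, left unused.

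Genes were named by the supplied Ensembl symbol table and RefSeq synonyms. Log2 ratios of FPKM + 1 were computed for genes averaging 1 FPKM or more over the libraries, with Python 3.11.15, pandas 2.3.3 and scipy 1.17.1. Folds of single genes are ratios of FPKM without a pseudocount, with exact conditional binomial 95% intervals that take the effective lengths as known. Since PCR copies carry no molecular identifiers, intervals cover counting error only. The ratio and interval steps were tested on simulated data. TMM factors came from edgeR 4.0.16 on expected counts and the length trend from a lowess fit (fraction 0.3, statsmodels 0.14.6). All 33 members were described by rule, and from the wider list up to 3 genes per comparison with the largest ratio in size. The members and lists were chosen with earlier results of these data known. Promoter sequences are RefSeq's for GRCm38.p6, and protein sequences were not used here.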

Additional observations from a re-analysis of the deposited data

Results flagged for a closer look

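For 5 of 32 members the log2 ratio of the labelled knockdown over the control virus was past 2-fold lower in normal culture and higher in OGD. The same order held for 4.41% of all genes. Each group held 1 library, and the difference was not tested. The difference, OGD minus normal culture, was 3.77 for Sec24d, 3.09 for Hspa5, 2.83 for Sel1l, 2.53 for Ern1 and 2.51 for Pdia3. Sec24d was also past 2-fold in opposite directions in OGD over normal culture under the 2 viruses, higher under the knockdown-labelled virus and lower under the control virus, and the labelled-knockdown minus control difference is by construction the same 3.77. Over the alternatives the difference ranged from 2.99 to 4.38 for Sec24d and from 2.20 to 3.72 for Hspa5. It ranged from 1.51 to 3.39 for Sel1l, 1.19 to 3.07 for Ern1 and 1.67 to 3.13 for Pdia3. In normal culture Sec24d was past 2-fold in 10 of 10 alternatives, Hspa5 in 9, Sel1l in 6, and Ern1 and Pdia3 in 4 each. By folds without the added 1 FPKM, Atf6, Hspa13 and Sec23b were also past 2-fold in opposite directions. The share of all genes with this pattern was not computed on that scale.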

How the results depend on the processing

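All members past 2-fold kept their direction under each of the 10 alternatives that gave a value. The 2 alternatives chosen after seeing the data were a fixed effective length and subtraction of the all-gene median. Counts of members past 2-fold were within 1.5 times their main value in 81 of the 100 cases; the cause was not tested for the rest.

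For the labelled knockdown over control in normal culture (1 higher, 9 lower), the number higher was 2 with a pseudocount of 0.1 FPKM (6.54% of all genes), 0 with equal FPKM sums (1.53%), and 3 with upper-quartile (8.27%), median-of-ratios (10.5%) or TMM scaling (7.95%) and after subtraction of the all-gene median (9.80%). The number lower was 17 with equal FPKM sums (24.7% of all genes), 4 with upper-quartile scaling (8.25%), and 3 with median-of-ratios scaling (6.53%), with TMM (7.69%), with the length trend removed (6.12%) and after subtraction of the all-gene median (6.89%). In OGD (11 higher) it was 17 with equal FPKM sums (25.8% of all genes), and 6 with TMM (9.66%) and with the length trend removed (7.13%). For the difference between cultures (19 at 1 or more, 3 at -1 or less), 11 were at 1 or more with the length trend removed (16.5% of all genes). The number at -1 or less was 1 with equal FPKM sums (5.40%), and 5 with median-of-ratios scaling (22.8%) and after subtraction of the all-gene median (21.8%). The shares of all genes, 4.67% higher and 13.9% lower as reported for normal culture, moved with the counts of members. All-gene medians moved by more than 0.1 with scaling, in normal culture to -0.52 with equal FPKM sums and 0.00 with median-of-ratios scaling, against -0.27 as reported.

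No paired analysis was possible because each group holds 1 library. Counting intervals do not hold the spread between cultures, which 1 library per group cannot give. For low members depth limits precision, since 3 counts at 1 kb correspond to 0.109 to 0.129 FPKM, and Derl3 lay near that level in some libraries.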
